A study of Mus musculus with 6 samples.

Results

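Collagen genes were examined in the transcriptome of mouse peritoneal endothelial cells (ECs). The members were the 44 genes of the count table, out of 22183, whose symbol has the form of a collagen chain (Col, a type number, a and a chain number). Of the 44, 27 had a mean of at least 10 read counts over the 6 mice and were tested, and 17 were under that mean and are listed as low. The rule uses the name and the overall mean, and not the difference between groups. It was set with earlier results of these data known.

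Peritoneal ECs came from 3 mice injected intraperitoneally with peritoneal dialysis (PD) fluid every day for 6 weeks (PD mice) and from 3 sham mice that received saline on the same schedule (saline mice). All 6 were wild-type male C57BL/6J mice aged 8 to 10 weeks, and the PD fluid was a high-glucose Dianeal solution. Cells were released from the mesentery with collagenase, and each mouse gave its own library. The labels describe magnetic selection on CD31, an endothelial surface protein, whereas the study's supplementary methods describe sorting of CD31+ CD45- cells. The libraries held between 21973426 and 26374292 counted reads, so that 3 counts corresponded to between 0.114 and 0.137 CPM, the counts scaled to library size.

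Collagens are triple helices of 3 chains and make up most of the fibrous extracellular matrix. Fibrillar collagens such as types I, III and V form the banded fibrils of connective tissue and scars. Type IV collagen forms the sheet-like network of basement membranes, on which endothelial and mesothelial cells rest, and type VI collagen forms beaded microfilaments around cells. In the peritoneum, collagen deposition in the submesothelial zone is a known feature of long-term dialysis, and fibroblasts and mesothelial-derived cells are regarded as its main producers, whereas ECs are known chiefly for basement membrane chains. In bulk libraries such as these, more cells of a type and more RNA per cell cannot be told apart.

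Collagen transcripts were a small part of these libraries and were more abundant in PD mice. They held 0.0103, 0.00771 and 0.0109% of the counts in saline mice 1, 2 and 3, and 0.0540, 0.0430 and 0.0347% in PD mice 1, 2 and 3. The exact binomial 95% confidence intervals, which cover counting error only, ran from 0.00735 to 0.00809% in saline mouse 2 and from 0.0531 to 0.0549% in PD mouse 1. The groups did not overlap, and neither did the intervals of the PD mice among themselves, with PD mouse 1 highest and PD mouse 3 lowest. Single genes often shared an end of this order: in 18 of the 27 tested genes PD mouse 1 was the highest PD mouse, and in 18 PD mouse 3 was the lowest. These are separate counts, and not every gene in one is in the other. The same counts over all genes tested were not made.

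With edgeR's quasi-likelihood test and a Benjamini-Hochberg adjusted p under 0.05, 21 of the 27 tested genes were higher in PD mice, 6 did not pass and 0 were lower. Among all 13960 genes tested, 58.7% passed by the same rule, 31.0% being higher and 27.8% lower. A change of at least 2-fold upward as well was met by 19 collagen genes, against 15.2% of all genes, and downward by 0, against 1.78%. In 21 collagen genes every PD mouse lay above every saline mouse, against 33.8% of all genes, and the median log2 fold change of the 27 was 1.58, against 0.02 over all genes tested. Of the 27, Col5a3, Col9a3, Col13a1 and Col16a1 had a saline mean under 10 counts and reached the minimum only through the PD mice. Of the other 23 genes, 19 were higher, 17 of them by at least 2-fold, and in 19 every PD mouse lay above every saline mouse. With the libraries scaled to 14 endothelial marker genes instead, which moved the median of all genes to -0.74, 16 collagen genes were higher against 10.9% of all genes, and Col23a1 turned to a log2 fold change of -0.25 (adjusted p = 0.244 in edgeR's test).

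**Figure D1:**
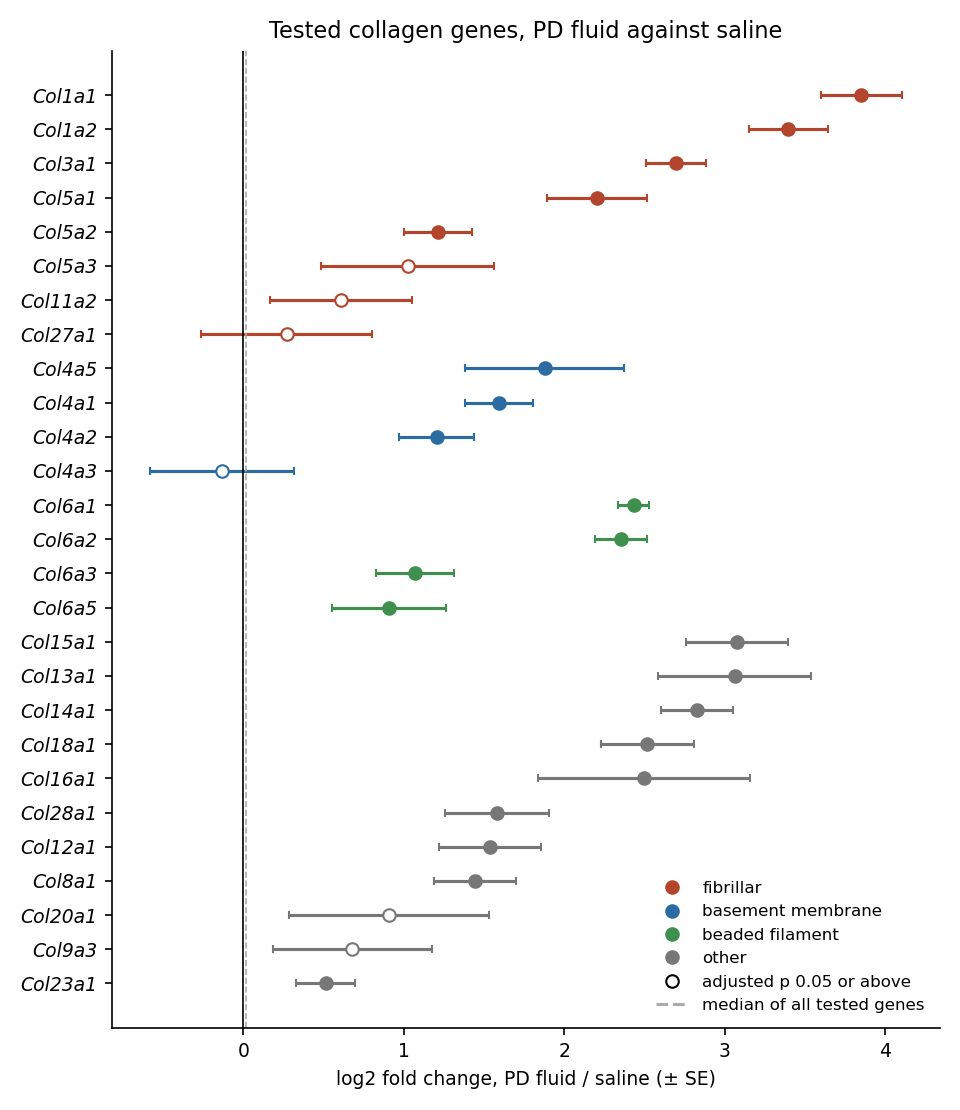
Log2 fold change of PD mice against saline mice for the 27 tested collagen genes, with bars for the standard error (SE), coloured by class. Filled points are the 21 genes with an adjusted p under 0.05, and the fibrillar chains Col1a1 and Col1a2 lie farthest to the right, at 3.85 and 3.40.

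Markers of several other cell types were higher as well. The shares over all genes tested were 31.0% higher and 27.8% lower. Of 12 fibroblast markers, none of them a collagen and including Cd34, which ECs also express, 10 were higher, and their summed level was 184 to 201 CPM in saline mice and 865 to 984 CPM in PD mice. The defining markers Dcn and Pdgfra were at means of 60.1 and 2.37 CPM in saline mice and 550 and 12.1 CPM in PD mice. All 11 mesothelial markers were higher, at a sum of 34.0 to 39.6 CPM and 239 to 271 CPM. Of 10 mural markers 8 were higher, at 296 to 318 CPM and 458 to 503 CPM. Of 14 endothelial markers 13 were higher, at 1257 to 1285 CPM and 2088 to 2235 CPM, Pecam1 (CD31) at 0.13 being the exception (adjusted p = 0.0688). Leukocyte markers, with 5 of 10 higher and 4 lower, summed to 8729 to 9005 CPM and 11922 to 12472 CPM, and Ptprc, which encodes CD45, was at means of 2372 and 1472 CPM. All 10 pancreatic acinar markers were higher, at 1.48 to 3.23 CPM and 6939 to 7872 CPM. Of the Schwann cell markers 5 were tested, 0 were higher and 1 was lower, with sums of 39.96 to 53.8 CPM and 50.4 to 59.0 CPM. Of 4 tested adipocyte markers 0 passed, with sums of 21.7 to 25.1 CPM and 22.0 to 24.1 CPM. Lep, an adipocyte marker, was at 0 in all PD mice. Clec3b (fibroblast), Cspg4 (mural), Muc16 and Bnc1 (mesothelial) and 8 of the acinar markers were higher but reached the count minimum only through the PD mice. Without such genes, 9 of 11 fibroblast, 7 of 9 mural, 9 of 9 mesothelial and 2 of 2 acinar markers were higher.

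Per CPM of fibroblast markers, collagen CPM was 0.533, 0.388 and 0.587 in saline mice and 0.605, 0.460 and 0.361 in PD mice, which overlapped. Within that marker sum, Cd34 held 89.5, 94.3 and 84.9 CPM in saline mice and 182, 190 and 192 CPM in PD mice. Thy1 was at means of 19.0 and 19.4 CPM, and Dcn at 60.1 and 550 CPM. The overlap is that of this list of 12 markers, and a ratio without Cd34 and Thy1 was not computed. Beside Dcn alone, at 59.1, 62.8 and 58.4 CPM, summed collagen was higher in every saline mouse, at 103, 78.1 and 108 CPM. In PD mice 1, 2 and 3 Dcn was at 506, 552 and 592 CPM, and collagen exceeded it in mouse 1 only, at 524, 429 and 355 CPM. Per CPM of endothelial markers, collagen CPM was 0.0801, 0.0621 and 0.0850 in saline mice and 0.234, 0.201 and 0.170 in PD mice, which did not overlap. Among the PD mice the collagen sum was 524, 429 and 355 CPM in mice 1, 2 and 3, while the fibroblast marker sum was 865, 933 and 984 CPM. The part of these other cells in the collagen differences was not tested.

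**Figure D2:**
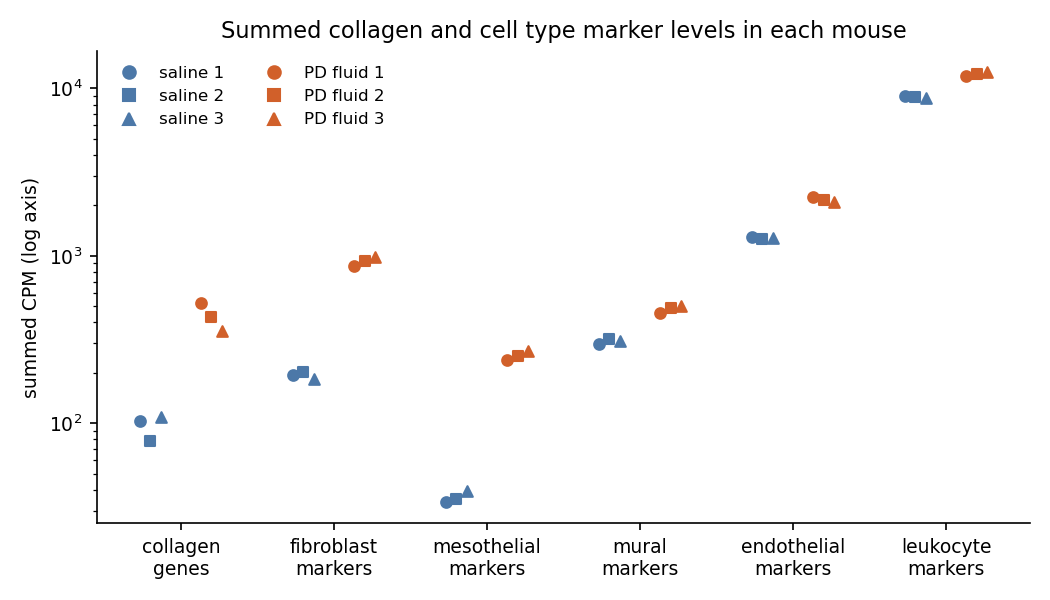
Summed CPM on a log axis of the collagen genes and of 5 marker lists in each mouse, saline in blue and PD fluid in orange, with a symbol for each mouse number. Collagen lies at 78.1 to 108 CPM in saline mice and 355 to 524 CPM in PD mice, and the fibroblast list at 184 to 201 CPM and 865 to 984 CPM.

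Since 21 members were higher, the bases before their transcription starts were read from RefSeq windows (GRCm38.p6), which held 38 windows for 35 of the 44 genes. Of the 21 higher genes 17 had a window, and Col1a1, Col5a2, Col12a1 and Col14a1 had none. The sequences below are the 250 bases before the start of a chain from each of types III, V and VI that was higher and has no annotated exon there. Capitals mark CCAAT (the CCAAT box), the TATA box letters TATAAA, the GC box letters GGGCGG, and the letters CAGAC, which occur in SMAD sites, each on either strand. None of these motifs contains another. Col3a1 (chr1:45311288-45311537, plus strand) and Col5a1 (chr2:27886175-27886424, plus strand) encode partners in mixed fibrils, and Col6a2 (chr10:76623631-76623880, minus strand) a beaded-filament chain.
Col3a1: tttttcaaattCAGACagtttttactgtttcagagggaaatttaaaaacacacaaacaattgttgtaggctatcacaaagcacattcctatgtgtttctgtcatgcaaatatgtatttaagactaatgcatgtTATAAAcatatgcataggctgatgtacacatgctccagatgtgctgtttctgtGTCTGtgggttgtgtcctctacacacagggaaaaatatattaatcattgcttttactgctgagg
Col5a1: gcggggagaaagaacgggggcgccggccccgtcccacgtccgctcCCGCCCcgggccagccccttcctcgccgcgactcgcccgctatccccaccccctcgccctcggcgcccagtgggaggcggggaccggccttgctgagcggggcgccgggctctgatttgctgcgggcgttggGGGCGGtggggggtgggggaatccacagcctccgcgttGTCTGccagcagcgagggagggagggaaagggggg
Col6a2: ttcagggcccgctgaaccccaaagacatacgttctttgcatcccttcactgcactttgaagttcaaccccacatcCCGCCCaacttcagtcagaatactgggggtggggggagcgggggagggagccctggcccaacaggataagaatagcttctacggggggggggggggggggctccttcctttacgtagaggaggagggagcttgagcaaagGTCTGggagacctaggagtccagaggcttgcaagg

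The Col3a1 sequence holds TATAAA beginning 117 bases before the start and no GC box, whereas that of Col5a1 holds GC boxes at 205 and 73 bases. A GC box on either strand was found in 22 of the 38 collagen windows (57.9%) and in 32.7% of all 32851 windows. It was present in 11 of the 19 windows of genes that were higher. CCAAT was in 34.2% of collagen windows against 33.8% of all, TATAAA in 13.2% against 12.4%, and CAGAC in 44.7% against 42.2%. These matches are descriptions of the letters in this stretch, and the 17 higher genes with a window did not share any of the 4 motifs throughout.

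Among the 11 fibrillar genes, 8 were tested and 5 were higher, namely Col1a1, Col1a2, Col3a1, Col5a1 and Col5a2, with a class median of 1.71. Each class count here and below stands beside 31.0% higher and 27.8% lower over all genes tested. Col1a1 encodes the alpha1 chain of type I collagen, the main collagen of scar and tendon (ENSMUSG00000001506, chromosome 11 of GRCm38, 94936224 to 94953042). Its level was 2.77, 2.40 and 5.55 CPM in saline mice 1, 2 and 3 and 62.9, 48.6 and 43.8 CPM in PD mice 1, 2 and 3. Every PD mouse thus lay well above the highest saline mouse. The log2 fold change was 3.85 (SE 0.25, adjusted p = 3.89e-07), the largest of the tested collagens. Col1a2, the partner chain in the type I heterotrimer (ENSMUSG00000029661, chromosome 6, 4504814 to 4541544), was at 3.90, 2.58 and 5.71 CPM in saline mice and 54.0, 42.1 and 33.1 CPM in PD mice. This was a log2 fold change of 3.40 (SE 0.25, adjusted p = 8.85e-07). In both chains saline mouse 3 was the highest saline mouse, PD mouse 1 the highest PD mouse and PD mouse 3 the lowest.

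Col3a1, the single chain of type III collagen, which co-assembles with type I in distensible tissues (ENSMUSG00000026043, chromosome 1, 45311538 to 45349706), had the highest level per length of all collagen genes in PD mice. In the authors' FPKM values, which divide by gene length, it was at 3.52, 2.31 and 4.36 in saline mice and 27.1, 22.6 and 17.7 in PD mice. In CPM the values were 17.1, 9.95 and 17.2 in saline mice and 113, 94.3 and 80.9 in PD mice, without overlap. The log2 fold change was 2.70 (SE 0.19, adjusted p = 5.94e-07).

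Type V collagen is a minor fibril component that initiates fibrils and limits their diameter. Col5a1 (ENSMUSG00000026837, chromosome 2, 27886425 to 28039514) was at 0.546, 1.15 and 0.704 CPM in saline mice and 4.27, 3.48 and 3.22 CPM in PD mice. The log2 fold change came to 2.203 (SE 0.31, adjusted p = 0.000139). Col5a2 (ENSMUSG00000026042, chromosome 1, 45374321 to 45503282) was at 3.20, 4.65 and 5.67 CPM in saline mice and 12.2, 10.1 and 8.97 CPM in PD mice. The groups were separate in both genes, and for Col5a2 the log2 fold change was 1.21 (SE 0.21, adjusted p = 0.00058). With endothelial marker scaling, Col5a2 was at 0.45 and no longer passed (adjusted p = 0.0557 in edgeR's test).

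The other 3 tested fibrillar genes did not pass, and their groups overlapped. Col5a3, a further type V chain, had a log2 fold change of 1.02 (SE 0.54, adjusted p = 0.123). It passed when PD mouse 2, the lowest PD mouse at 0.377 CPM, was left out (1.38, adjusted p = 0.0467 in edgeR's test). Col11a2, a chain of the cartilage collagen type XI, was at 0.61 (SE 0.44, adjusted p = 0.252), and Col27a1 at 0.27 (SE 0.53, adjusted p = 0.685). The low fibrillar genes were Col2a1, the main cartilage collagen, with 0 counts in every mouse, Col11a1 and Col24a1. Col11a1 had 0, 0 and 1 counts in saline mice and 6, 5 and 7 in PD mice. Col24a1 had 2, 0 and 0 counts in saline mice and 1, 21 and 5 in PD mice, which overlapped.

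**Figure D3:**
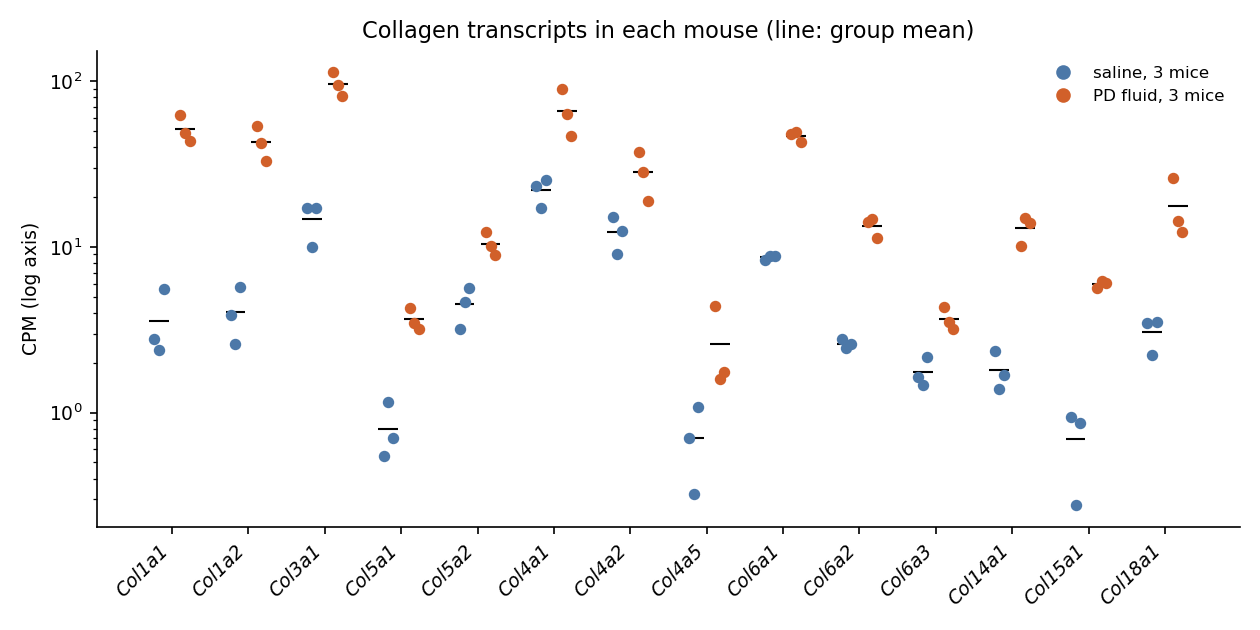
CPM on a log axis of 14 collagen genes in each mouse, saline in blue and PD fluid in orange, with a line at each group mean. The orange points of each of these genes lie above its blue points, with the widest separation in Col1a1, from 2.40 to 5.55 CPM in saline mice against 43.8 to 62.9 CPM in PD mice.

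Among the 6 basement membrane genes, which encode the chains of type IV collagen, 4 were tested and 3 were higher. The alpha1 and alpha2 chains form the type IV network of nearly all vessels. Col4a1 (ENSMUSG00000031502, chromosome 8, 11198423 to 11312826) was at 23.2, 17.2 and 25.5 CPM in saline mice and 89.5, 63.1 and 46.7 CPM in PD mice. For Col4a1 the log2 fold change was 1.60 (SE 0.21, adjusted p = 9.08e-05). Col4a1 had the highest level per length of all collagen genes in saline mice, at 4.51, 4.25 and 5.11 FPKM, and in PD mice it reached 16.5, 11.1 and 8.61 FPKM. Col4a2 (ENSMUSG00000031503, chromosome 8, 11312805 to 11449287) was at 15.1, 9.08 and 12.5 CPM in saline mice and 37.4, 28.3 and 18.9 CPM in PD mice. Here the gap between the groups was narrower, with PD mouse 3 close to saline mouse 1. The log2 fold change was 1.20 (SE 0.23, adjusted p = 0.00122), and with endothelial marker scaling it was 0.44 and did not pass (adjusted p = 0.0608 in edgeR's test).

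Type IV chains alpha3 to alpha6 form networks of restricted distribution, such as the glomerular and smooth muscle basement membranes. Col4a5 (ENSMUSG00000031274, chromosome X, 141475385 to 141689234) was at 0.703, 0.323 and 1.08 CPM in saline mice and 4.41, 1.59 and 1.77 CPM in PD mice. PD mouse 1 stood far above the others, and the log2 fold change of 1.88 (SE 0.50, adjusted p = 0.00747) became 1.25 without it (adjusted p = 0.0525 in edgeR's test). Col4a3 was at 0.585, 0.461 and 0.538 CPM in saline mice and 0.331, 0.629 and 0.498 CPM in PD mice. These groups overlapped, and its log2 fold change of -0.13 (SE 0.45, adjusted p = 0.816) turned to 0.10 without PD mouse 1. Both remaining chains were low. Col4a4 had 3, 4 and 4 counts in saline mice and 0, 1 and 5 in PD mice, whereas Col4a6 had 1, 0 and 0 in saline mice and 13, 18 and 15 in PD mice.

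Among the 6 beaded-filament genes, all of type VI collagen, 4 were tested and all 4 of these were higher. Col6a1 (ENSMUSG00000001119, chromosome 10, 76708792 to 76726168) was at 8.35, 8.80 and 8.77 CPM in saline mice and 47.7, 49.1 and 43.0 CPM in PD mice. This was the tightest difference of the collagens, with a log2 fold change of 2.43 (SE 0.10, adjusted p = 7.22e-09). Col6a2 (ENSMUSG00000020241, chromosome 10, 76595762 to 76623630) was at 2.77, 2.44 and 2.61 CPM in saline mice and 14.1, 14.6 and 11.3 CPM in PD mice. Its log2 fold change of 2.35 (SE 0.16, adjusted p = 5.76e-07) was within 1 SE of that of Col6a1. Unlike the type I chains and Col4a1, both genes were highest in PD mouse 2.

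Col6a3 encodes the large alpha3 chain, which completes the common type VI monomer (ENSMUSG00000048126, chromosome 1, 90765923 to 90843971). It was at 1.64, 1.47 and 2.15 CPM in saline mice and 4.34, 3.52 and 3.22 CPM in PD mice. The alpha3 chain had a log2 fold change of 1.07 (SE 0.24, adjusted p = 0.00311), and 0.31 with endothelial marker scaling, where it did not pass (adjusted p = 0.269 in edgeR's test). Col6a5, an alternative to alpha3, was at 1.29, 1.06 and 0.621 CPM in saline mice and 1.84, 2.35 and 1.40 CPM in PD mice. The groups nearly met, and the log2 fold change of 0.91 (SE 0.36, adjusted p = 0.046) no longer passed with DESeq2 (adjusted p = 0.0697), with endothelial marker scaling (0.15, adjusted p = 0.713 in edgeR's test) or without saline mouse 2 or 3 or PD mouse 1 or 2. The other alternative chains were low, with 0 to 9 counts for Col6a4 and 4 to 15 counts for Col6a6 in any mouse.

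The other 21 genes belong to smaller families, and 11 of them were tested and 9 were higher. Col9a3, Col13a1 and Col16a1 reached the count minimum only through the PD mice, and Col13a1 and Col16a1 are among the 9. Multiplexins are proteoglycan collagens of vascular and epithelial basement membrane zones, and both were higher. Col15a1 (ENSMUSG00000028339, chromosome 4, 47208161 to 47313167) was at 0.937, 0.277 and 0.869 CPM in saline mice and 5.66, 6.25 and 6.07 CPM in PD mice. The PD mice were close to each other, and the log2 fold change was 3.07 (SE 0.32, adjusted p = 1.4e-05). Col18a1, the precursor of endostatin, an inhibitor of angiogenesis (ENSMUSG00000001435, chromosome 10, 77052178 to 77166548), was at 3.47, 2.21 and 3.52 CPM in saline mice and 26.2, 14.3 and 12.4 CPM in PD mice. PD mouse 1 was well above the other PD mice, and the log2 fold change was 2.52 (SE 0.29, adjusted p = 3.25e-05).

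Fibril-associated collagens decorate fibrils with interrupted helices. Col14a1 (ENSMUSG00000022371, chromosome 15, 55307750 to 55520803) was at 2.34, 1.38 and 1.70 CPM in saline mice and 10.2, 14.8 and 13.9 CPM in PD mice. Here PD mouse 1 was the lowest PD mouse, unlike in the type I chains and Col4a1. The log2 fold change was 2.83 (SE 0.22, adjusted p = 1.73e-06). Col12a1 was at 1.54 (SE 0.32, adjusted p = 0.00177), with 0.737 to 0.910 CPM in saline mice and 1.77 to 3.05 CPM in PD mice. Col16a1 was at 2.49 (SE 0.66, adjusted p = 0.00748), on 0 to 11 counts in saline mice and 19 to 49 in PD mice, and at 3.25 without saline mouse 3. Col9a3 at 0.68 (SE 0.50, adjusted p = 0.258) and Col20a1 at 0.91 (SE 0.62, adjusted p = 0.229) did not pass and overlapped between groups. Without PD mouse 3, whose level was 0.181 CPM, Col20a1 passed at 1.35 (adjusted p = 0.0427 in edgeR's test).

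Transmembrane collagens are anchored in the plasma membrane. Col13a1, found at cell adhesions, was at 0.507, 0.138 and 0.124 CPM in saline mice and 2.65, 2.18 and 1.86 CPM in PD mice. The groups were far apart, but the saline values rest on 13, 3 and 3 counts. Its log2 fold change was 3.06 (SE 0.48, adjusted p = 0.000277), and 4.05 without saline mouse 1. Col23a1 was at 4.33, 5.48 and 3.72 CPM in saline mice and 7.14, 6.00 and 6.11 CPM in PD mice, a small difference with no overlap. The log2 fold change of 0.51 (SE 0.19, adjusted p = 0.0339) was lost with DESeq2 (adjusted p = 0.0544) and on leaving out any mouse other than saline mouse 2, and it turned to -0.25 with endothelial marker scaling. Col8a1, a short-chain network collagen of vessel walls and Descemet's membrane, was at 3.40, 2.03 and 3.64 CPM in saline mice and 9.93, 8.93 and 5.89 CPM in PD mice. The groups were separate, with a log2 fold change of 1.44 (SE 0.25, adjusted p = 0.000629). Col28a1 was at 1.09, 0.507 and 0.869 CPM in saline mice and 2.35, 2.43 and 2.72 CPM in PD mice, with a log2 fold change of 1.58 (SE 0.32, adjusted p = 0.00166).

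In this group 10 genes were low. Col8a2, the partner of Col8a1, had 0 counts in all 3 saline mice and 24, 20 and 8 counts in PD mice. Against a floor of 3 counts in each saline library, its mean in PD mice was at least 5.49-fold higher. Col9a2 had 0, 2 and 8 counts in saline mice and 20, 12 and 13 in PD mice. Col7a1, the anchoring fibril collagen of epithelia, had 4 to 6 counts in saline mice and 7 to 14 in PD mice. Col10a1, a growth plate collagen, had 1 to 3 counts in saline mice and 2 to 3 in PD mice. Col17a1, a hemidesmosome collagen, had 3 to 13 counts and 5 to 17, and Col19a1 had 4 to 9 and 3 to 17. These 3 overlapped between the groups, and Col9a1 had 0 counts in every mouse. Col22a1, Col25a1 and Col26a1 were detected in PD mouse 2 only, at 2, 1 and 1 counts. For genes at 0, the depth allows up to 3 counts, the floor given above in CPM.

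The ratio of PD to saline summed FPKM differed between the classes, with no test of that difference. Summed over all 44 genes, collagen FPKM was 19.3 ± 2.87 in saline mice and 88.7 ± 18.6 in PD mice (SD, n = 3 mice each), a ratio of means of 4.58. The ratio of means was 7.22 for the fibrillar class, 4.95 for the beaded-filament class, 3.76 for other collagens and 2.55 for the basement membrane class. In that order, the median log2 fold changes of the tested genes lay closer together, at 1.71, 1.71, 1.58 and 1.40. The sums are set by a few abundant genes. In PD mice Col1a1, Col1a2 and Col3a1 were at means of 8.8, 8.2 and 22.5 FPKM, of 42.6 for the fibrillar class. As a share of the summed FPKM in the same mouse, fibrillar collagens were 28.1, 27.7 and 34.6% in saline mice and 48.6, 47.6 and 47.6% in PD mice. Basement membrane collagens were 35.6, 35.5 and 33.2% in saline mice and 21.7, 18.2 and 16.98% in PD mice. The largest class was the basement membrane class in saline mice 1 and 2 and the fibrillar class in all PD mice. Saline mouse 3 was close to even, and its largest class was the basement membrane class in CPM (36.8% against 33.2%) or with the multiplexins Col15a1 and Col18a1 counted there (38.3% against 34.6%). Beaded-filament collagens overlapped, at 14.4 to 18.6% in saline mice and 15.3 to 19.3% in PD mice. Other collagens were 18.7% ± 1.28 in saline mice and 15.4% ± 0.88 in PD mice (SD, n = 3 mice each). Shares were not tested. The gene length implied by counts and FPKM differed between mice by a median of 1.08 times over the tested genes, and by up to 3.23 times for Col16a1.

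**Figure D4:**
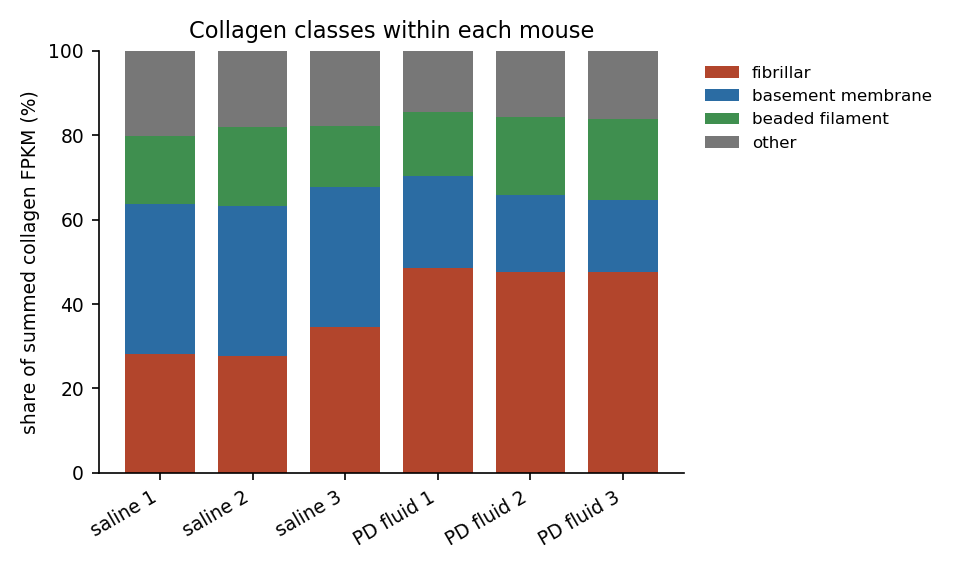
Share of the summed collagen FPKM held by each class, with 1 bar per mouse. The fibrillar share is 27.7 to 34.6% in saline mice and 47.6 to 48.6% in PD mice, and the basement membrane share is 33.2 to 35.6% and 16.98 to 21.7%.

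Ratios of counts within a library do not depend on how libraries are scaled. The ratios below were chosen after the values were seen, from chains that share a trimer or a fibril and from the leading gene of each class, and were not tested. Col1a1 to Col1a2 was 0.710, 0.929 and 0.971 in saline mice and 1.16, 1.16 and 1.32 in PD mice. Col4a1 to Col4a2 was 1.54, 1.89 and 2.03 in saline mice and 2.39, 2.23 and 2.46 in PD mice. In counts, every PD mouse had a higher ratio of alpha1 to alpha2 than every saline mouse in both pairs. In FPKM this held for type I, whereas Col4a1 to Col4a2 overlapped, at 1.93, 3.06 and 2.62 in saline mice and 2.76, 2.52 and 3.00 in PD mice. The length implied by counts and FPKM differed between mice by 1.43 times for Col4a1. Col6a1 to Col6a2 overlapped between the groups, at 3.01 to 3.60 and 3.35 to 3.8. Col6a1 to Col6a3, in contrast, was 4.08 to 5.97 in saline mice and 11.0 to 13.9 in PD mice. Col5a1 to Col5a2 was 0.124 to 0.248 in saline mice and 0.344 to 0.359 in PD mice.

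Between fibril-forming types, Col3a1 to Col1a1 was 6.18, 4.15 and 3.10 in saline mice and 1.80, 1.94 and 1.85 in PD mice. Col3a1 counts thus exceeded Col1a1 counts in every mouse, and the ratio was smaller in each PD mouse than in any saline mouse. Between classes, Col1a1 to Col4a1 was 0.119, 0.139 and 0.218 in saline mice and 0.703, 0.771 and 0.938 in PD mice. Col6a1 to Col4a1 was 0.344 to 0.512 in saline mice and 0.534 to 0.922 in PD mice, so these groups came close.

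**Figure D5:**
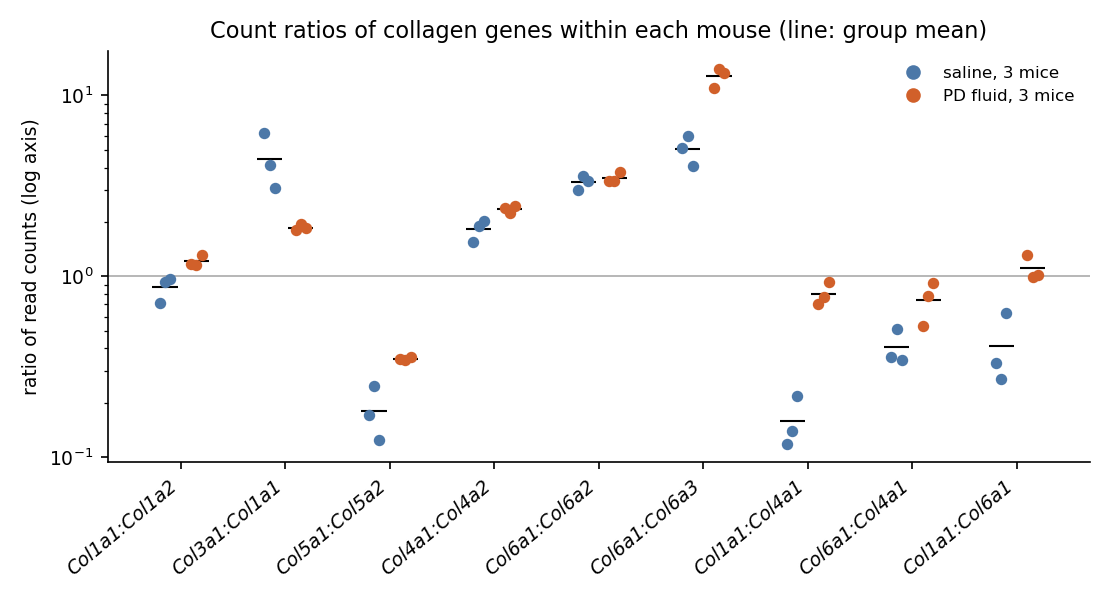
Ratio of read counts of 9 gene pairs on a log axis in each mouse, saline in blue and PD fluid in orange, with a line at each group mean. In these counts only Col6a1 to Col6a2 overlaps between the groups, at 3.01 to 3.60 against 3.35 to 3.8 (in FPKM, not plotted, Col4a1 to Col4a2 overlaps too), and Col1a1 to Col4a1 is the most widely separated pair.

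Several members lie side by side in the genome (GRCm38, GENCODE M21, in which all 44 identifiers matched). Col4a1 and Col4a2 are arranged head to head on chromosome 8 and overlap by 22 bases at their first exons, and both were higher, at 1.60 and 1.20. Col4a3 and Col4a4 are head to head on chromosome 1 with 71 bases between them. Col4a3 did not pass, and Col4a4 was too low to be tested. Col4a5 and Col4a6 are head to head on chromosome X with 1308 bases between them. Col3a1 and Col5a2 are tail to tail on chromosome 1, 24614 bases apart, and their log2 fold changes were 2.70 and 1.21. Col6a1 and Col6a2 lie in the same direction on chromosome 10, 85161 bases apart, with nearly equal changes, whereas the chromosome 9 neighbours Col6a4, Col6a5 and Col6a6 were low or near the threshold. The preparation is not stated to keep strand. Col9a3 shares 6.07% of its exon bases with Tcfl5 on the opposite strand, Col4a3 shares 5.65% with C430014B12Rik, and every other tested gene shares under 2% with any annotated gene.

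Collagen chains need dedicated enzymes, chaperones and proteases before they can form fibrils. Of 47 genes of collagen synthesis, crosslinking and binding, 43 were tested, 33 were higher and 1 was lower, with a median log2 fold change of 1.26, against 31.0% higher and a median of 0.02 over all genes. With endothelial marker scaling, 22 were higher and 6 lower. Under that scaling 10784 of all 13960 genes passed, 1527 of them higher and the rest lower. In hydroxylation of proline and lysine, which stabilises the helix and prepares crosslinks, 11 of 12 tested genes were higher. The 3 largest changes were those of the lysyl hydroxylases Plod3, at 1.80 (adjusted p = 2.55e-05), and Plod1, at 1.76 (adjusted p = 3.88e-08), and of the prolyl 3-hydroxylase family gene P3h3, at 1.75 (adjusted p = 0.000863). The prolyl 4-hydroxylase subunit P4ha1 was at 33.6, 32.0 and 31.6 CPM in saline mice and 88.5, 99.1 and 88.5 CPM in PD mice. The isomerase Ppib, at 0.05 (adjusted p = 0.498), did not pass.

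In folding and export, 4 of 8 genes were higher and 1 was lower. The shares over all genes tested, beside which each role stands, were 31.0% higher and 27.8% lower. The endoplasmic reticulum prolyl isomerase Fkbp10 was at 1.86 (adjusted p = 9.64e-06), the collagen-specific chaperone Serpinh1 (HSP47) at 1.26 (adjusted p = 1.34e-05) and the related isomerase Fkbp14 at 1.09 (adjusted p = 0.00134). Mia3, or TANGO1, which helps load procollagen into transport vesicles, was lower in every PD mouse, at 138, 147 and 146 CPM in saline mice and 99.8, 109 and 109 CPM in PD mice. This gave a log2 fold change of -0.44 (adjusted p = 0.000192). The glycosyltransferase Colgalt2 was higher at 0.78 (adjusted p = 0.0254), and Colgalt1, at -0.03 (adjusted p = 0.793), did not pass.

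For propeptide cleavage, which lets procollagen assemble, 5 of 6 tested genes were higher. Adamts2, the N-proteinase of types I and III, was at 1.37, 1.20 and 1.99 CPM in saline mice and 17.5, 14.8 and 16.8 CPM in PD mice, a log2 fold change of 3.42 (adjusted p = 9.79e-08). The enhancer protein Pcolce2 was at 2.87 (adjusted p = 6.46e-05) and the C-proteinase Bmp1 at 2.22 (adjusted p = 1.73e-05). In crosslinking, 5 of 7 genes were higher, led by the lysyl oxidase family gene Loxl1, at 1.17, 0.737 and 1.20 CPM in saline mice and 15.4, 13.1 and 13.8 CPM in PD mice, a log2 fold change of 3.75 (adjusted p = 6.19e-08). Lox itself was at 1.70 (adjusted p = 6.44e-05) and Loxl3 at 1.57 (adjusted p = 4.11e-05). Collagen receptors were higher in 7 of 8 tested genes, and in 5 of the 6 with a saline mean of at least 10 counts. The endocytic receptor Mrc2 was at 4.49 (adjusted p = 0.000332) on a saline mean of 1 count, a fold that depends on the prior count of the fit. The fibroblast integrin subunit Itga11 was at 3.43 (adjusted p = 0.00027) on 3, 1 and 10 counts in saline mice, and the discoidin receptor Ddr2 was at 1.60 (adjusted p = 1.23e-05). Mrc2 and Itga11, and the crosslinking gene Loxl4, at 1.14 (adjusted p = 0.0591), reached the minimum only through the PD mice, and of the other 40 tested genes of the list 31 were higher.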

How the data were processed

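Peritoneal ECs of 3 saline and 3 PD mice were profiled by poly(A) RNA sequencing. The authors deposited whole-number read counts and FPKM for 22183 genes, with 1 column per mouse and 0 unmatched sample columns. Their group means, fold changes and p-values were not used. The submitters' processing notes list fastp 0.18.0, Bowtie2 2.2.8, HISAT2, StringTie 1.3.1 and RSEM, with no role. The genome build and annotation are not given in the sources used here. Total counts ran from 21973426 to 26374292 per mouse.

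Genes with a mean of at least 10 counts (13960) were scaled by TMM and tested with edgeR 4.0.16 in R 4.3.3 (quasi-likelihood test, PD fluid against saline, no covariate). Adjusted p-values are Benjamini-Hochberg adjusted over all genes tested and come from this fit unless the sentence names DESeq2, endothelial marker scaling or a mouse left out. SE is the log2 fold change over the square root of F. The study's methods name limma. Replicates are separate mice. On 13857 genes with counts simulated from these libraries, 165 of 198 changed genes were recovered, none with the wrong sign, with 15 false calls. In the data 58.7% of genes passed, so the simulation does not measure error or scaling under so wide a change.

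All collagens were accounted for. By rule, values in every mouse were due for the tested type I, III, IV and VI chains and the 3 most abundant and 3 most changed genes of each class, and they were added for some others. Named synthesis genes were the 3 most changed of each role that passed and those that were lower. P4ha1, Ppib and Colgalt1 were named after their values were seen. Members and lists were chosen with earlier results of these data known. Alternatives were filterByExpr, no filter, DESeq2 1.42.0 size factors and test, limma 3.58.1 voom, endothelial marker scaling, a replicate block, a 2-fold minimum, other class borders, CPM shares and leaving out each mouse. Promoters were read only before the start.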

Additional observations from a re-analysis of the deposited data

How the results depend on the processing

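The count of collagen genes called higher was 21 in the report. It was 23 with filterByExpr and 26 without a filter, which test more genes, 19 with DESeq2 and 21 with limma-voom or DESeq2 size factors, and 18 (without PD mouse 1) to 21 with each mouse left out. With endothelial marker scaling it was 16, beaded-filament calls went from 4 to 2, and lower synthesis genes from 1 to 6. That scaling moved the median of all genes to -0.74, with 10784 of 13960 genes passing and 1527 of them higher. Under that scaling Col23a1 (-0.25), Col11a2 (-0.15), Col27a1 (-0.48) and Col9a3 (-0.068) turned negative. Col4a3 ranged from -0.36 to 0.10 with a mouse left out. No synthesis gene was lower by 2-fold (0). With Col15a1 and Col18a1 counted as basement membrane genes, that class had 5 higher genes, a share of 39.2% in saline and 24.1% in PD mice, and other collagens 14.3% and 10.2%. With CPM in place of FPKM, the basement membrane share was 36.8% and 22.2%, and the beaded-filament share in PD mice 15.4%. The cause of these changes was not tested.

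Deviations of same-numbered mice correlated at 0.10, 0.03 and -0.17, and those of mice with different numbers at -0.27 to 0.23. With 3 mice per group these values can neither show nor exclude a pairing by replicate number. With the replicate block, 21 collagen genes and 33 synthesis genes were still called higher. Counts in single digits limit the low members.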
